A study of Rattus norvegicus with 30 samples.

Results

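The genes described here are those of the acute phase response and of inflammatory signalling in the liver. They were listed by name as 33 rat genes, and 31 of them had a probe on the array whose transcript matched the rat symbol. These 31 genes were read by 34 of 30367 probes and are 31 of the 26912 genes or unnamed transcripts on the array. Il1r1 and Tnfaip3 had no matched probe and are not analysed here. A2m, Cp and Steap4 had a second probe, which is given where its call differed.

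Liver RNA came from male animals of 3 models, each fed for 7 days on a diet with phenobarbital (PB) at 1000 ppm or on control diet without it. Crl:CD(SD) rats, an outbred stock written here as SD, and CAR KO rats, which lack the constitutive androstane receptor (CAR) encoded by Nr1i3, gave 4 arrays for each diet. Mice whose livers had been repopulated with rat hepatocytes, called chimeric mice, gave 7 arrays for each diet. The host strain, the share of rat hepatocytes, the background strain of the CAR KO rats, the animals' ages and the part of Nr1i3 that was deleted are not given in the sources used here. The livers of chimeric mice still hold the host's own mouse cells, and the array is a rat design. In whole liver, fewer cells of a type and less RNA per cell cannot be told apart. In chimeric livers a low signal may also come from mouse RNA that the rat probes bind poorly, which cannot be told apart either.

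In the acute phase response, cytokines made mainly by macrophages reach the hepatocyte, which then changes which plasma proteins it secretes. Interleukin-6 binds its receptor (Il6r) together with gp130 (Il6st) and activates the transcription factor Stat3, and Socs3 shuts this pathway off again. Interleukin-1, tumour necrosis factor and bacterial products acting through toll-like receptors activate NF-kB, which is held inactive by the inhibitor encoded by Nfkbia, while Cebpb and Cebpd act on many of the same plasma protein genes. Genes that rise in this response are called positive acute phase genes, and those that fall, such as Ahsg, negative ones. Phenobarbital is the classical activator of CAR, which controls drug-metabolising enzymes in hepatocytes.

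Of the 30367 probes, between 50.8% and 58.1% were well above background on the chimeric arrays and between 58.7% and 67.0% on the rat arrays. Correlations between arrays of a group lay between 0.975 and 0.994. Each model was read on slides of its own, so a difference between models and a difference between slides cannot be told apart. Of the chimeric arrays, slide 1 held the 7 control arrays and PB array 1, and slide 2 held PB arrays 2 to 7. Within the SD slide and the CAR KO slide, the control arrays filled the first row and the PB arrays the second, so that diet and row cannot be told apart there. Both Nr1i3 probes gave signals in CAR KO rats within or close to those of SD rats: between 0.69 and 1.35 against 0.76 to 1.88 on control diet by the first. Since the deleted part is not given, these probes do not check the labels.

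All levels below are log2 signals relative to the array's 75th percentile, which is 0, and all differences are differences of these levels. A gene is called where limma's adjusted p, over all genes tested, is under 0.05. A difference is given ± its standard error. The labels call the arrays of a group biological replicates.

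The start regions of 28 of the 33 listed genes were matched in the RefSeq promoter table for build GRCr8, from 250 bases before to 50 bases after the start; A2m, Hp, Lbp, Cebpd and Ccl2 were not matched. Shown here are the regions of 5 genes whose levels the results below turn on: Crp and Orm1, which rose with PB in SD rats, Ahsg and Itih1, which fell there, and Lrg1, which of these genes had the largest fall in chimeric mice. Each is written 5′ to 3′ on the gene's own strand, and capitals mark matches, on either strand, to any of the 4 motifs named after them.
Crp, chr13:87693812-87694111, + strand: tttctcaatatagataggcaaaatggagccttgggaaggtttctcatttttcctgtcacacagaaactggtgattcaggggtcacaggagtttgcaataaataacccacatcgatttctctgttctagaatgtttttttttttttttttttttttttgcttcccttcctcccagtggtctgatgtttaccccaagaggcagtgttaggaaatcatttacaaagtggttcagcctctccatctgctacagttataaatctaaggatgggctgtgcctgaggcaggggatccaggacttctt
Orm1, chr5:81788259-81788558, + strand: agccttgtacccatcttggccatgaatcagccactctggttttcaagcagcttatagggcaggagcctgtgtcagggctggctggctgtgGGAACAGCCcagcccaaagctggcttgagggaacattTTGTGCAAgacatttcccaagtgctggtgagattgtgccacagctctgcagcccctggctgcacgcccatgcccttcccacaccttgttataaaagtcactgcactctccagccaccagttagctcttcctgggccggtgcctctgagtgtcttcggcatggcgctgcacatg
Ahsg, chr11:91632534-91632833, - strand: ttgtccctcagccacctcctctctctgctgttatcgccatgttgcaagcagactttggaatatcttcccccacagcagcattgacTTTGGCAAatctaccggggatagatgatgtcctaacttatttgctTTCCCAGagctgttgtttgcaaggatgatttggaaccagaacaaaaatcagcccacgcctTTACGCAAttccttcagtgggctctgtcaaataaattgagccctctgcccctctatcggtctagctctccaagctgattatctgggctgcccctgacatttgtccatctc
Itih1, chr16:6142764-6143063, - strand: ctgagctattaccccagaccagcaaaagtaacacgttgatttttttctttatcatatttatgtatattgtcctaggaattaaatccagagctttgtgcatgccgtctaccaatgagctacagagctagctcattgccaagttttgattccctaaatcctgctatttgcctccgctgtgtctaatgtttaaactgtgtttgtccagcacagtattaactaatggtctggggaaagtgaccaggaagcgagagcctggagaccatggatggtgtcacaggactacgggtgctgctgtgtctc
Lrg1, chr9:1036882-1037181, - strand: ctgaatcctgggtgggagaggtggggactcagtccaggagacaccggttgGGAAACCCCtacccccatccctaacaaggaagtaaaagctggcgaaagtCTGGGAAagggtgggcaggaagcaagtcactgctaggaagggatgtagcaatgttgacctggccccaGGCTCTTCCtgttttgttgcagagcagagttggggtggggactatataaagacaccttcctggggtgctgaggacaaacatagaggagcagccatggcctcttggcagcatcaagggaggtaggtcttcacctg

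The motifs searched were TTCNNNGAA (the palindrome of STAT factors), CTGGGAA (the core of the interleukin-6 response element), TTGCNNAA (a pair of half-sites of C/EBP factors) and GGNNNTTCC (a core of NF-kB sites), where N is any base. The first and second can overlap, and capitals then run together. Orm1 held a C/EBP pair and an NF-kB core, Ahsg a response element core and C/EBP pairs, and Lrg1 a response element core and NF-kB cores. Crp and Itih1 held none of these letters in this window. Of the 28 regions, 14.3% held the STAT palindrome against 8.87% of all 33469 regions in the table, and 25% held the response element core against 11.3%. The C/EBP pair was in 25% against 10.6%, and the NF-kB core in 39.3% against 18.3%. These are matches of letters only.

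In SD rats, 5 of these genes were called for a change with phenobarbital. Of the 31 genes, 2 rose and 3 fell, while 2.5% of all genes tested rose and 1.8% fell. The genes that rose were the plasma proteins Crp and Orm1, and those that fell were Ahsg, Itih1 and Itih3. The largest of these changes was 1.44-fold. When the fit held the 8 SD arrays alone, with all 30 arrays in 1 fit or with the replicate number as a block, none of the 5 was called, Ahsg being closest at adjusted p values of 0.0539, 0.271 and 0.0519.

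Crp encodes C-reactive protein, a pentraxin that binds phosphocholine on microbes and dying cells, and which is abundant in rat plasma also without inflammation. Its level was 3.02, 2.96, 2.87 and 2.67 on the SD control arrays and 3.21, 3.26, 3.35 and 3.05 on the SD PB arrays. Every PB array was above every control array. The difference was 0.34 ± 0.0855 (1.27-fold; limma adjusted p = 0.0395). Without SD control 3 or 4 or SD PB 1, 2 or 3, the call was lost, with an adjusted p of up to 0.109, as it was with median centring (adjusted p = 0.05003).

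Orm1 encodes alpha-1-acid glycoprotein, a plasma carrier of basic drugs. Its SD control levels were 6.21, 6.37, 6.29 and 6.48, and its SD PB levels were 6.69, 7.15, 6.78 and 6.84. The diets did not overlap, and the difference was 0.53 ± 0.139 (1.44-fold; limma adjusted p = 0.0489). This call rested on all 8 arrays: without any one of them the adjusted p lay between 0.0536 and 0.12, and it was also not called with each array centred on its median, with quantile normalization or with the normexp background.

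Ahsg, which encodes fetuin-A, a plasma inhibitor of calcification and a negative acute phase protein, had the lowest adjusted p of the 31 genes in SD rats. Its levels were 8.43, 8.42, 8.59 and 8.40 on control diet and 8.09, 8.14, 7.91 and 8.06 on PB. Every PB array was lower than every control array, with a difference of -0.41 ± 0.0664 (1.33-fold lower; limma adjusted p = 0.00331). Without any one of the 8 arrays, the adjusted p stayed between 0.00534 and 0.0121.

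Itih1 and Itih3 encode heavy chains of the inter-alpha-trypsin inhibitor family, which bind hyaluronan in the matrix, and in the rat both genes neighbour Itih4 on chromosome 16. Itih1 levels were 6.42, 6.47, 6.59 and 6.62 on control diet and 6.19, 6.14, 6.24 and 6.15 on PB, without overlap, and the difference was -0.35 ± 0.0673 (limma adjusted p = 0.0105). Itih3 levels were 8.38, 8.32, 8.56 and 8.57 against 8.08, 8.13, 8.37 and 8.06. SD PB array 3 lay among the Itih3 controls, and the difference of -0.30 ± 0.078 (limma adjusted p = 0.0456) was lost without any one of 6 of the arrays, SD control 2 and SD PB 3 being the exceptions, with an adjusted p of up to 0.113. Itih4 differed by -0.01 ± 0.0599, with a 95% interval from -0.14 to 0.11.

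**Figure D1:**
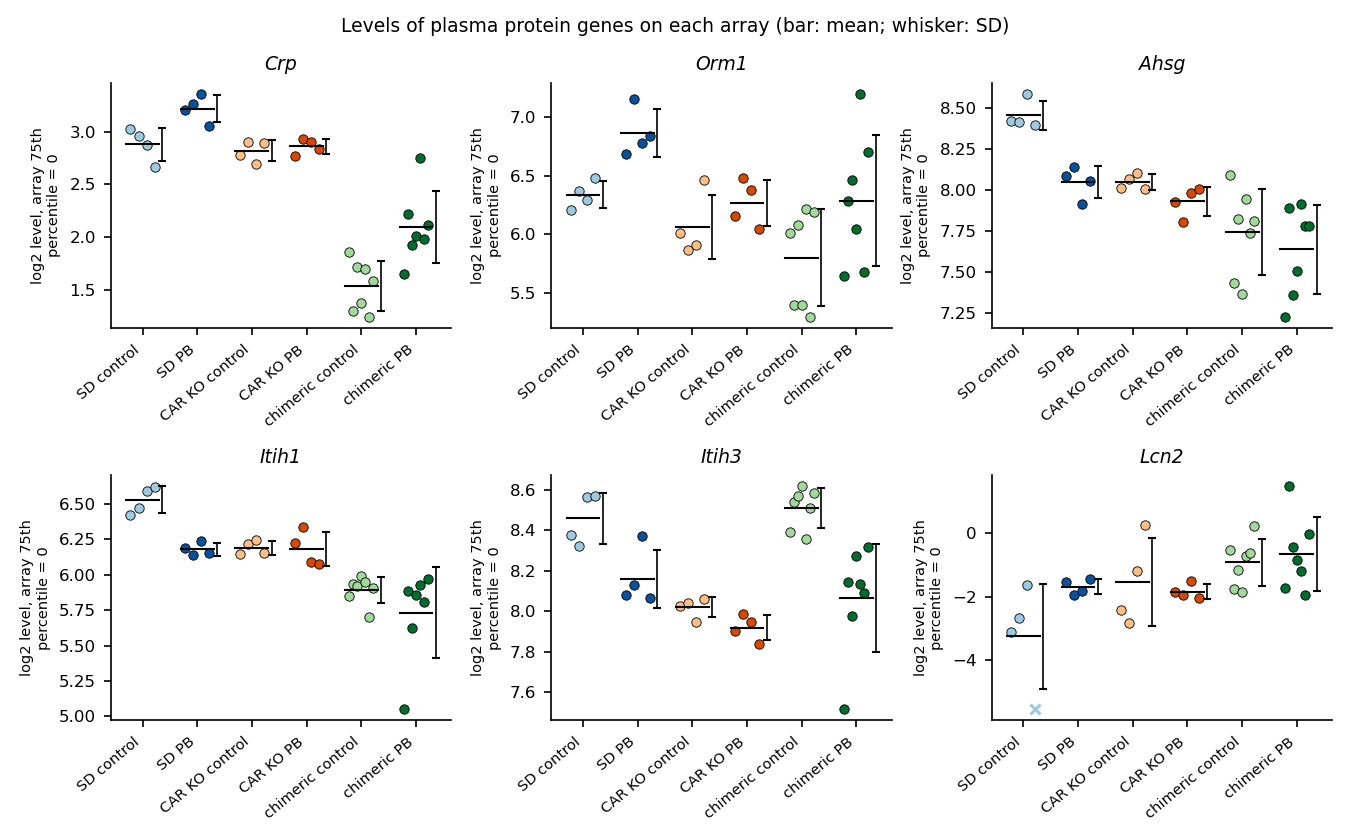
Levels of 6 plasma protein genes on each of the 30 arrays, as log2 signal relative to the array's 75th percentile; points are arrays, bars are means, whiskers are SDs, and a cross is a signal not well above background. Crp and Orm1 are higher on SD PB than on SD control arrays, Ahsg and Itih1 are lower, and the Lcn2 levels of SD control arrays spread from -5.54 to -1.64.

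None of the other 26 genes passed the threshold in SD rats. Lcn2, whose product lipocalin-2 binds bacterial iron carriers, had the largest difference, 1.55 ± 0.71 (limma adjusted p = 0.239). Its SD control levels were -3.13, -2.66, -1.64 and -5.54, the last not well above background, while its PB levels were -1.54, -1.95, -1.83 and -1.46. The spread was thus among the controls. Hp (haptoglobin, which binds free haemoglobin) differed by -0.04 ± 0.0587, Cp (ceruloplasmin, the copper-carrying plasma ferroxidase) by 0.05 ± 0.0849 and Apcs (serum amyloid P, a pentraxin like Crp) by -0.04 ± 0.0803. For Hp the 95% interval ran from -0.16 to 0.09.

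Among the receptors, Il6r was close to the threshold in SD rats. Its control levels were 1.34, 1.29, 1.29 and 1.14, and its PB levels 0.55, 1.16, 0.32 and 0.68. SD PB array 2 lay just above the lowest control, and the difference was -0.59 ± 0.165 (limma adjusted p = 0.0585; 0.0133 without that array). Il6st differed by -0.19 ± 0.0991 and Il1rn, the interleukin-1 receptor antagonist, by -0.34 ± 0.216, both not called. Stat3, Socs3, Cebpb, Cebpd and Nfkbia differed by between -0.24 and 0.07.

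None of the genes of microbial sensing and leukocyte recruitment was called in SD rats. Cd14, the co-receptor of toll-like receptor 4, was 0.97, 2.0, 2.36 and 1.70 on control diet and 3.16, 3.03, 2.18 and 2.36 on PB. The groups overlapped, and the difference of 0.92 ± 0.375 had a limma adjusted p of 0.184. Ccl2, the monocyte chemoattractant, differed by 0.64 ± 0.369 and Icam1, a leukocyte adhesion molecule, by 0.44 ± 0.185. Neither was called, nor were Tlr2, Tlr4 or the metalloreductase gene Steap4.

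In CAR KO rats 0 of the 31 genes passed the threshold (4 had an unadjusted p under 0.05), while 0.0513% of all genes tested were higher and 0.154% lower on PB by limma. Crp, called in SD rats, was 2.78, 2.90, 2.69 and 2.89 on control diet and 2.77, 2.93, 2.90 and 2.84 on PB. These groups lay within each other, and the difference was 0.04 ± 0.0858 with a 95% interval from -0.14 to 0.23. Ahsg was 8.01, 8.07, 8.11 and 8.01 against 7.93, 7.81, 7.98 and 8.01, a difference of -0.12 ± 0.0667. Itih1 differed by -0.01 ± 0.0675 and Orm1 by 0.21 ± 0.14.

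The lowest adjusted p values in CAR KO rats were those of the receptor genes. Il6r was 0.98, 1.19, 1.47 and 1.29 on control diet and 0.86, 0.39, 0.31 and 0.68 on PB, and Il6st was 2.58, 2.69, 2.42 and 2.30 against 2.06, 1.91, 2.21 and 2.16. Neither gene's groups overlapped. The differences were -0.67 ± 0.165 for Il6r (limma adjusted p = 0.0867) and -0.41 ± 0.0994 for Il6st (limma adjusted p = 0.0861), short of the threshold. Without the filter on dim probes 2 genes were called lower, and with array weights 1. Icam1 levels also did not overlap, at 1.57, 1.56, 1.30 and 1.44 against 1.62, 2.23, 2.09 and 1.95, with a difference of 0.50 ± 0.185 (limma adjusted p = 0.21).

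The difference between the PB responses of CAR KO and SD rats was tested directly and was called for 0 of the 31 genes (4 had an unadjusted p under 0.05), while 0.107% of all genes tested had a higher and 0.427% a lower response in CAR KO rats. For Itih1, which fell in SD rats, the CAR KO response minus the SD response was 0.34 ± 0.0955 (95% interval 0.14 to 0.55; limma adjusted p = 0.151). For Ahsg it was 0.29 ± 0.0943 (0.09 to 0.49; adjusted p = 0.203), for Crp -0.30 ± 0.121 (-0.56 to -0.04; adjusted p = 0.315) and for Orm1 -0.32 ± 0.198 (-0.74 to 0.10; adjusted p = 0.516). A loss of these changes in CAR KO rats was thus not shown by the test. For Il6r, at -0.08 ± 0.234, the interval ran from -0.58 to 0.42.

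**Figure D2:**
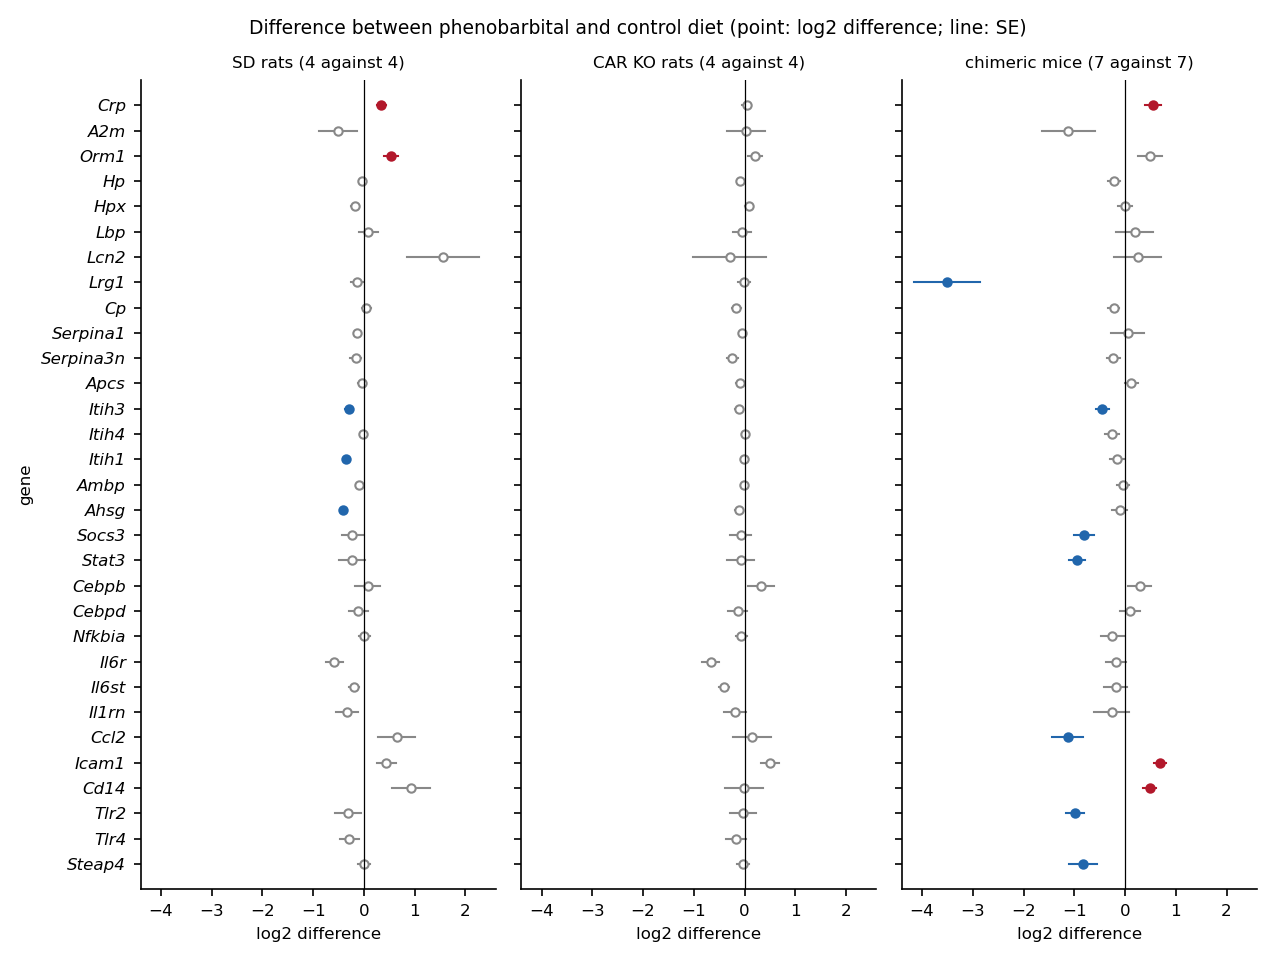
Difference between PB and control diet for each gene, in log2 units, in SD rats, CAR KO rats and chimeric mice; points are differences, lines 1 SE each way, filled red and blue points are called higher and lower by limma, and open points are not called. SD rats show 5 filled points, CAR KO rats 0 and chimeric mice 10, and Tlr4 has no point in chimeric mice because it was not tested there.

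On control diet, CAR KO rats had lower levels than SD rats for 12 of the 31 genes and a higher level for 0. Of all genes tested, 19.7% were lower and 14.4% higher. By role, 8 of 14 positive acute phase genes, all 3 other plasma protein genes and 1 of 5 signalling genes were lower. None of the 3 receptor or antagonist genes and none of the 6 genes of microbial sensing and recruitment was called, except that the second probe of Steap4 gave -0.55 ± 0.109 (limma adjusted p = 0.00153). The median difference of the 31 genes was -0.21, against -0.08 over all genes tested. Lcn2 (1.69) and Ccl2 (0.81) lay above 0 and were not called. Lcn2 was called higher without SD control 3 (2.23) or CAR KO control 2 (2.12), and Ccl2 without CAR KO control 1 (1.08). Lrg1, Apcs and Orm1, also not called, were called lower without certain single arrays.

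A2m encodes alpha-2-macroglobulin, the broad protease inhibitor that is the classical acute phase protein of the rat. Its control levels were 0.56, 0.87, 0.00 and 1.0 in SD rats and -1.06, -1.76, 0.03 and -1.04 in CAR KO rats. CAR KO control 3 lay within the SD range, and the difference was -1.57 ± 0.371 (2.96-fold lower; limma adjusted p = 0.00505). The second A2m probe gave -1.14 ± 0.356 (adjusted p = 0.0238).

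Lbp encodes the plasma protein that hands bacterial lipopolysaccharide to Cd14. It was 1.32, 0.97, 1.31 and 1.55 in SD rats on control diet and 0.55, 0.66, 0.31 and 0.84 in CAR KO rats. The groups did not overlap, and the difference was -0.70 ± 0.181 (limma adjusted p = 0.00879). Cd14 itself differed by 0.13 ± 0.376 on this diet and was not called.

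Both serpins of the list were lower as well. Serpina1 (alpha-1-antitrypsin, the inhibitor of neutrophil elastase) was 8.94, 8.92, 8.93 and 9.06 in SD and 8.49, 8.52, 8.62 and 8.63 in CAR KO rats, a difference of -0.40 ± 0.0607 (limma adjusted p = 0.000193). Serpina3n, an antichymotrypsin-like serpin, was 8.79, 8.46, 8.93 and 8.84 against 8.41, 8.30, 8.21 and 8.42, a difference of -0.42 ± 0.108 (adjusted p = 0.00808). Neither gene's groups overlapped, and both genes lie on rat chromosome 6.

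Of the inter-alpha-inhibitor genes, Itih3 differed by -0.44 ± 0.0783, Itih1 by -0.34 ± 0.0675 and Itih4 by -0.21 ± 0.0601, each without overlap and with limma adjusted p values of 0.00072, 0.00161 and 0.0156. Ambp, whose product is cut into alpha-1-microglobulin and the light chain bikunin of the same inhibitor, differed by -0.22 ± 0.0568 (adjusted p = 0.00834). Ahsg differed by -0.41 ± 0.0667 (adjusted p = 0.000354), close in size to its fall with PB in SD rats. The CAR KO control levels of Ahsg, between 8.01 and 8.11, thus lay within the range of SD rats on PB, 7.91 to 8.14.

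Hpx (hemopexin, which binds haem) was lower by a difference of -0.29 ± 0.0811 (limma adjusted p = 0.0127) and Hp by -0.20 ± 0.059 (adjusted p = 0.0184). With quantile normalization Hpx, Hp, Ambp and Itih4 were not called, and the Hp difference was 0.00. Hp was also not called without CAR KO control 1 (adjusted p = 0.0567). Nfkbia, the NF-kB inhibitor, was 0.78, 1.24, 0.75 and 1.03 in SD rats and 0.31, 0.53, 0.68 and 0.51 in CAR KO rats, a difference of -0.44 ± 0.111 (adjusted p = 0.00709) without overlap. With all 30 arrays in 1 fit, 2 genes in place of 12 were called lower on each diet.

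On PB, CAR KO rats were again lower than SD rats for 12 of the 31 genes and higher for 0, against 25.1% lower and 16.9% higher of all genes tested. Here 11 of 14 positive acute phase genes were lower. Stat3, not called, was higher by 0.52 without overlap, at 2.36 to 2.56 in SD and 2.76 to 3.45 in CAR KO rats. It was called higher when the fit held only the arrays compared (limma adjusted p = 0.0306). Ambp, Cebpd, Il6st and Steap4 gained calls as lower under other alternatives. Crp and Orm1, which rose on PB in SD rats, differed by -0.36 ± 0.0853 (limma adjusted p = 0.00394) and -0.60 ± 0.139 (adjusted p = 0.00335), each without overlap. Cp differed by -0.37 ± 0.0847 (adjusted p = 0.00283), but its second probe gave 0.20 ± 0.0931 (adjusted p = 0.0945) in the other direction, and 0.45 ± 0.0937 (adjusted p = 0.00215) on control diet, so that the direction for Cp depends on the probe.

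Lbp was 1.52, 1.46, 1.29 and 1.21 in SD rats on PB and 0.27, 0.98, 0.77 and 0.12 in CAR KO rats, a difference of -0.84 ± 0.18 (limma adjusted p = 0.00203). Serpina3n differed by -0.50 ± 0.107, Nfkbia by -0.52 ± 0.11 and Serpina1 by -0.30 ± 0.0601, with adjusted p values of 0.00199, 0.0019 and 0.00123. None of these 4 genes overlapped between the models. The second Steap4 probe was called lower here too (-0.39 ± 0.108; adjusted p = 0.0099), the brighter one not. Ahsg and Itih1, lower on control diet, differed by -0.12 ± 0.0662 and 0.00 ± 0.067 on PB and were not called.

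Smaller differences on PB were those of Hp (-0.25 ± 0.0585), Apcs (-0.25 ± 0.08), Itih3 (-0.24 ± 0.0778) and Itih4 (-0.18 ± 0.0596), all called by limma. With quantile normalization Hp was -0.00 (adjusted p = 0.971), Apcs -0.10 and Itih3 -0.15, none called, and with median centring Apcs, Itih3 and Itih4 were not called. The calls of Apcs and Itih3 were lost without SD PB 3 or CAR KO PB 4, at adjusted p values of up to 0.0711 and 0.0677. That of Itih4 was lost without SD PB 1, CAR KO PB 2 or CAR KO PB 4, and its difference was 0.0042 with quantile normalization. A2m, at -1.03 ± 0.369 (adjusted p = 0.037), kept its call without SD PB 4 or CAR KO PB 1 and lost it without any one of the other 6 arrays; its second probe gave -0.60 ± 0.354 (adjusted p = 0.189).

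Some macrophage markers were lower in CAR KO than in SD rats. Of all genes tested, 19.7% were lower on control diet and 25.1% on PB. On control diet 4 of the 12 macrophage and Kupffer cell markers were lower in CAR KO rats by limma (Vsig4, C1qc, C1qa and Clec4f), and on PB 6 of 12, with none higher on either diet. Their summed level was 105.1 to 122.7 in SD and 73.5 to 115.7 in CAR KO rats on control diet, and 107.8 to 123.0 against 58.6 to 96.4 on PB. Of 7 hepatocyte markers, 2 were lower on control diet (Apoa1 and Apob) and 0 on PB, and the summed level of the 7 was 1339 to 1409 in SD and 1214 to 1302 in CAR KO rats on control diet. Also lower on control diet were 2 of 7 T, NK and B cell, 2 of 7 stellate cell and fibroblast and 1 of 4 cholangiocyte markers. On PB these counts were 1 of 6, 2 of 7 and 1 of 4. None of the 4 endothelial and 3 neutrophil markers tested was called on either diet. Whether any of these markers has a part in the differences of the acute phase genes was not tested.

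**Figure D3:**
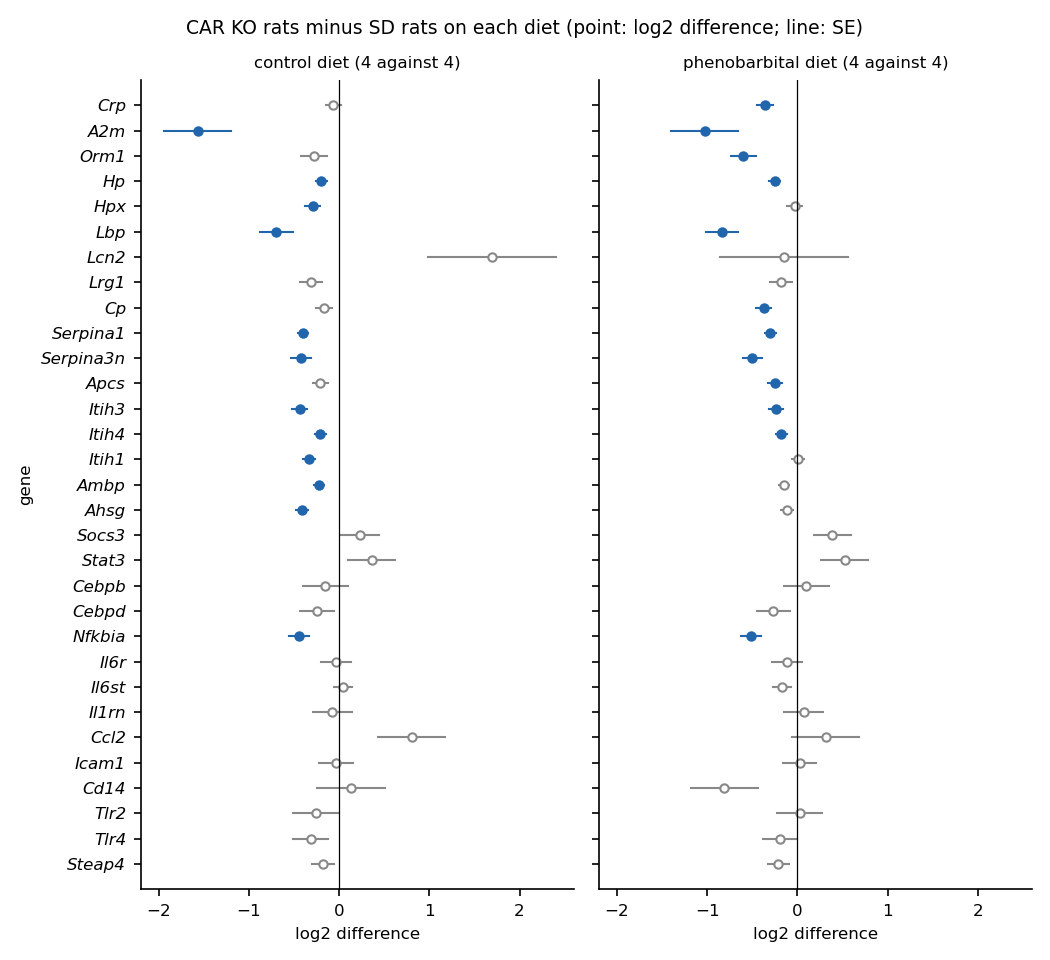
Level in CAR KO rats minus level in SD rats for each gene, in log2 units, on control diet and on PB; points are differences, lines 1 SE each way, and filled blue points are called lower by limma. On each diet 12 genes are called lower and 0 higher, and the points on the right of 0 are open.

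In chimeric mice 30 of the 31 genes were tested for the PB response, Tlr4 being too dim. With PB, 3 rose (Icam1, Crp and Cd14) and 7 fell (Lrg1, Ccl2, Tlr2, Stat3, Steap4, Socs3 and Itih3), while 19.3% of all genes tested rose and 23.4% fell. Diet and slide are nearly the same split here, so the value within slide 1, PB array 1 against the 7 controls, is given beside each gene called. In the fit with slide as a block, Itih3 and Itih1 were called lower. There the PB side rests on PB array 1 alone, which is assumed to vary like the other arrays and stood far below the other PB arrays for these same 2 genes, so that these p values carry no replicate check. With each array centred on its median all genes shifted up by 0.28, and 4 genes were called higher and 5 lower.

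Lrg1, which encodes a leucine-rich glycoprotein secreted by hepatocytes, had the largest change. It was 3.31, 3.03, 3.37 and 3.08 in SD rats on control diet and 2.97, 3.05, 3.09 and 3.13 on PB, but between -2.24 and 0.70, median 0.28, on the 7 chimeric control arrays and between -5.60 and -1.19, median -3.88, on the 7 chimeric PB arrays. Chimeric PB array 7 lay among the controls, and PB arrays 4 and 6 were not well above background. The PB difference in chimeric mice was -3.51 ± 0.641 (limma adjusted p = 0.000521), a size that rests in part on these dim signals. Within slide 1, the Lrg1 level on PB array 1 was -3.10, and the difference was -2.72 (adjusted p = 0.501). Without any one chimeric array, the adjusted p was at most 0.00148.

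The fall of Lrg1 differed between chimeric mice and SD rats: the chimeric response minus the SD response was -3.37 ± 0.805 (limma adjusted p = 0.00423). With the brightest probe for each gene, Ccl2 was the other with such a difference, at -1.77 ± 0.502 (adjusted p = 0.0137). No gene had a higher response. Of all genes tested, 12.6% had a lower and 6.29% a higher response in chimeric mice. With slide as a block neither difference was called, at -2.58 for Lrg1 and -1.55 for Ccl2. With array weights 4 genes were called, 1 with a higher response, and with median centring 1 was higher and 2 lower. The second Cp probe was also called with a lower response, at -0.98 ± 0.201 (limma adjusted p = 0.00138). The brighter Cp probe gave -0.27 ± 0.15 and was not called, and the mean of both probes, -0.63, was called.

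Of the signalling genes, Stat3 lay between 4.15 and 4.83, median 4.63, on chimeric control arrays and between 3.12 and 4.04, median 3.47, on PB. The groups did not overlap, and the difference was -0.94 ± 0.158 (limma adjusted p = 0.000274). Within slide 1 the Stat3 difference was -0.69 (adjusted p = 0.459). Socs3, the feedback inhibitor induced by Stat3, lay between -2.72 and -1.77, median -2.28, on control diet and between -3.86 and -2.43, median -3.08, on PB. The Socs3 groups overlapped, with a difference of -0.81 ± 0.202 (adjusted p = 0.00472), and within slide 1 it was -0.84 (adjusted p = 0.511).

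The genes of recruitment and microbial sensing moved in both directions in chimeric mice. Icam1 lay between 0.58 and 1.06, median 0.71, on control diet and between 1.24 and 1.87, median 1.34, on PB, without overlap (0.68 ± 0.123; limma adjusted p = 0.000466). Tlr2, a receptor for bacterial lipopeptides, lay between -2.0 and -1.21, median -1.63, on control diet and between -3.25 and -2.24, median -2.62, on PB, also without overlap (-0.99 ± 0.178; adjusted p = 0.000455). Within slide 1 these differences were 0.46 for Icam1 and -0.67 for Tlr2, with adjusted p values of 0.537 and 0.549.

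Ccl2 lay between -2.72 and -0.89, median -1.47, on chimeric control arrays and between -3.92 and -1.93, median -2.55, on PB. The groups overlapped, and the difference was -1.13 ± 0.304 (limma adjusted p = 0.00727). Cd14 lay between 3.0 and 3.62, median 3.18, on control diet and between 3.36 and 3.94, median 3.80, on PB (0.49 ± 0.126; adjusted p = 0.00586). Within slide 1 the differences were -0.91 for Ccl2 and 0.27 for Cd14, neither called.

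Steap4, a metalloreductase of the cell surface, differed by -0.84 ± 0.279 (limma adjusted p = 0.0244) by its brighter probe and by -0.13 ± 0.21 (adjusted p = 0.647) by its second, and its call was lost without chimeric control 2, PB 4 or PB 5 (adjusted p up to 0.0517). Within slide 1 the difference of its brighter probe was -0.71. The second probe of Cp gave a fall of -1.01 ± 0.154 (adjusted p = 0.000153), while the brighter Cp probe gave -0.23 ± 0.115 and was not called. The second A2m probe gave -1.37 ± 0.506 (adjusted p = 0.0411), against -1.12 ± 0.53 (adjusted p = 0.1) by the brighter one, which was called without chimeric control 4 or PB 2. Within slide 1 the brighter probes gave -2.14 for A2m and -0.31 for Cp, neither called.

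Of the plasma proteins, Crp lay between 1.24 and 1.86, median 1.58, on chimeric control arrays and between 1.65 and 2.75, median 2.01, on PB. The groups overlapped, and the difference was 0.55 ± 0.156 (limma adjusted p = 0.00976), but within slide 1 it was 0.11 (adjusted p = 0.97). Itih3 lay between 8.36 and 8.62, median 8.54, on control diet and between 7.52 and 8.32, median 8.13, on PB, without overlap (-0.45 ± 0.119; adjusted p = 0.00727). Within slide 1 the Itih3 difference was -0.99 (adjusted p = 0.00926), PB array 1 being the lowest, and that of Itih1 was -0.84 (adjusted p = 0.0251) against -0.16 ± 0.133 over all arrays. With median centring Itih3 was not called.

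Orm1, called in SD rats, differed by 0.49 ± 0.244 in chimeric mice (95% interval -0.03 to 1.01; limma adjusted p = 0.12), and Ahsg by -0.11 ± 0.146. The call of Orm1 depends on the setting: it was called higher with median centring (0.77, adjusted p = 0.0186), with all 30 arrays in 1 fit (adjusted p = 0.035) and with the replicate block (adjusted p = 0.0281), but within slide 1 its difference was -0.15 (adjusted p = 0.974). Within slide 1 Ahsg differed by -0.52, Il6r by -0.30, Il6st by -0.63 and Lcn2 by -0.81, none called. The chimeric response minus the SD response was -0.04 ± 0.324 for Orm1 and 0.22 ± 0.201 for Crp, neither called. Over all arrays Il6r and Il6st differed by -0.17 ± 0.193 and -0.18 ± 0.227. Lcn2 spread over 3.41 log2 units on chimeric PB arrays, between -1.95 and 1.46, and was not called (0.25 ± 0.465).

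Of all genes tested in chimeric mice, 23.4% fell with PB and 19.3% rose. Among marker genes of other cells, 4 of the 8 tested macrophage and Kupffer cell markers fell by limma and 0 rose. These were Cd68 (-1.38 ± 0.153), Clec4f (-0.96 ± 0.135), Adgre1 (-0.48 ± 0.146) and C1qb (-0.42 ± 0.15). Within slide 1 these 4 were -0.82, -0.50, -0.50 and -0.44, none called. The summed level of the 12 matched markers was 56.6 to 67.7 on control diet and 39.9 to 62.3 on PB, and Marco was not well above background on any chimeric array. Of the hepatocyte markers, 1 rose (Hnf4a) and 2 fell (Cps1 and Alb), also none of them called within slide 1. Of 6 tested stellate cell and fibroblast markers, 2 rose and 3 fell. Of 3 endothelial markers 1 fell, of 3 cholangiocyte markers 1 rose, and the 1 tested T, NK and B cell marker fell. The part of these markers in the changes of Lrg1, Ccl2 or the other genes was not tested.

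**Figure D4:**
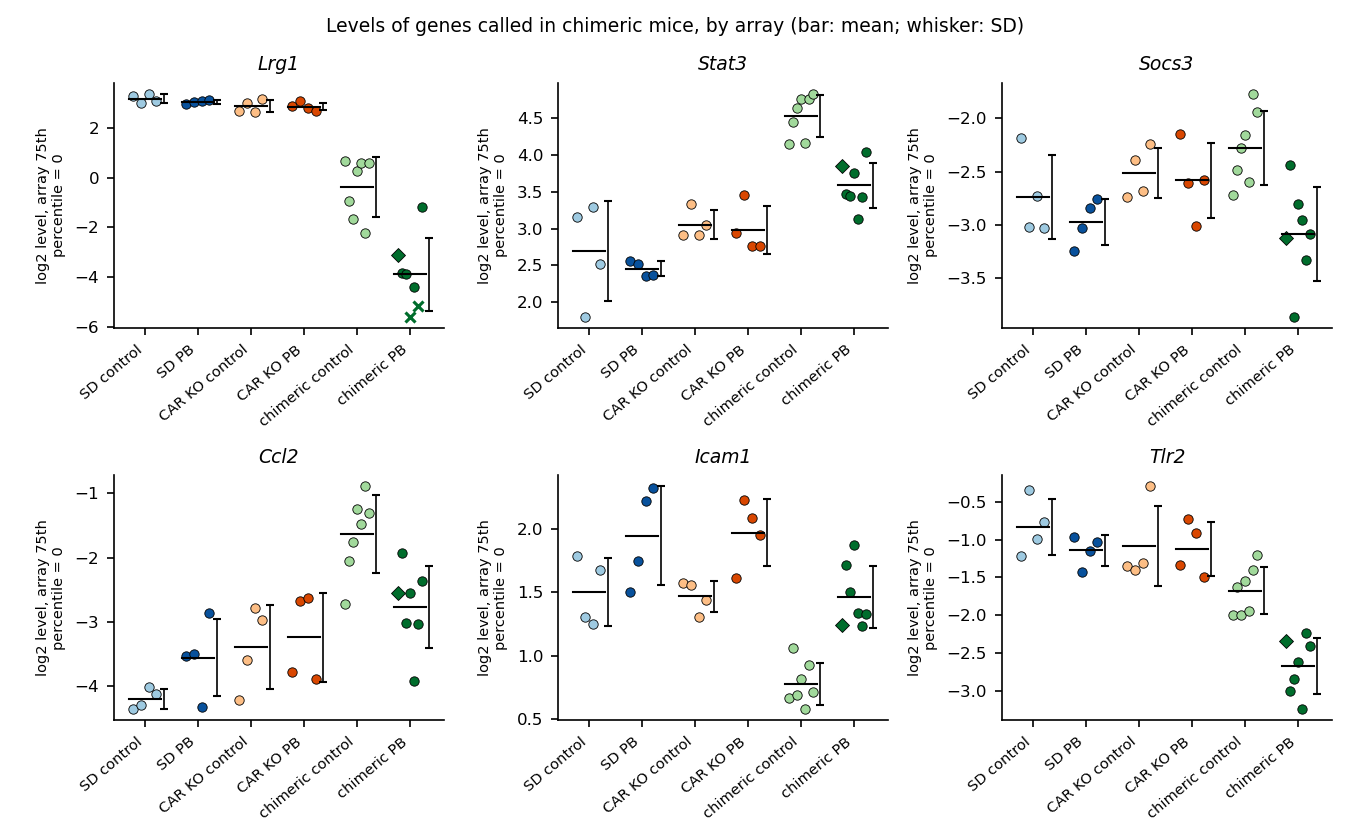
Levels of 6 genes called in chimeric mice on each of the 30 arrays, as log2 signal relative to the array's 75th percentile; points are arrays, the diamond is chimeric PB array 1, which shared a slide with the chimeric controls, crosses are signals not well above background, bars are means and whiskers SDs. Lrg1, Stat3, Socs3, Ccl2 and Tlr2 are lower and Icam1 is higher on most chimeric PB arrays than on chimeric control arrays.

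On control diet, chimeric mice had higher levels than SD rats for 10 of the 31 genes and lower levels for 12, against 38.7% higher and 35.9% lower of all genes tested. This split depends on the scaling: with each array centred on its median, all genes shifted up by 0.40 and 16 genes were higher and 6 lower. By role, 3 of 5 signalling genes and 2 of 3 receptor or antagonist genes were higher and none lower. Of 14 positive acute phase genes, 3 were higher and 6 lower.

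The gene with the lowest level in chimeric mice relative to SD rats was Lrg1, at -3.58 ± 0.569 (11.9-fold lower; limma adjusted p = 3.4e-06). Steap4 differed by -1.90 ± 0.254 (adjusted p = 2.41e-07) and its second probe by -3.26 ± 0.193. Tlr4, the lipopolysaccharide receptor, was -3.53, -3.73, -3.82 and -3.52 in SD rats and was well above background on 1 of the 7 chimeric control arrays, array 6 at -4.01. Its limma difference of -2.49 ± 0.336 (adjusted p = 2.7e-07) rests on dim signals and was 0.05 with the normexp background.

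Crp was lower by 1.34 log2 units in chimeric mice: its level was 1.54 ± 0.236 (SD, n = 7) there and 2.88 ± 0.154 (SD, n = 4) in SD rats (limma adjusted p = 4.38e-09). Its neighbour Apcs differed by -0.79 ± 0.116 (adjusted p = 1.06e-06). Ahsg differed by -0.71 ± 0.128 and Serpina1 by -0.94 ± 0.287, with adjusted p values of 1.95e-05 and 0.00464, and none of these 4 genes overlapped between the models. Serpina1 varied between chimeric controls from 6.74 to 8.66, while the 4 SD controls lay between 8.92 and 9.06. Itih1 (-0.64 ± 0.117), Hpx (-0.41 ± 0.12), Orm1 (-0.54 ± 0.229), Tlr2 (-0.85 ± 0.222) and Icam1 (-0.73 ± 0.155) were also lower by limma; with median centring these 5 and Serpina1 were not called, and Orm1 was lost without any one of 6 arrays (chimeric control 2, 4 or 6 or SD control 2, 3 or 4; adjusted p up to 0.0856).

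Of the genes that were higher, Ccl2 had the largest difference. It was -4.36, -4.29, -4.01 and -4.13 in SD rats and between -2.72 and -0.89 in chimeric mice on control diet, without overlap (2.56 ± 0.355; limma adjusted p = 4.13e-07). Stat3 differed by 1.84 ± 0.213 (adjusted p = 2.13e-08), Cebpb by 1.53 ± 0.253 (adjusted p = 5.87e-06) and Il1rn by 1.66 ± 0.331 (adjusted p = 7.33e-05). Neither Stat3, Cebpb nor Il1rn overlapped between the models. Lcn2 (2.31 ± 0.612), Cd14 (1.48 ± 0.262), Il6r (0.81 ± 0.195), Cebpd (0.62 ± 0.206) and Serpina3n (0.45 ± 0.122) were higher as well. Of these, Lcn2 and Cebpd overlapped between the models. The size for Lcn2 rests in part on the SD control array at -5.54, which was not well above background.

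Cp was called higher by its brighter probe (0.36 ± 0.106; limma adjusted p = 0.00406) and lower by its second (-0.72 ± 0.142; adjusted p = 6.07e-05), and with the mean of both probes or with quantile normalization the Cp difference was negative (-0.18 and -0.14). Hp, Ambp, Itih3, Itih4, Il6st, Nfkbia, Lbp and A2m were not called. Lbp was called higher without chimeric control 2 (adjusted p = 0.0166). The direction of several of these depends on the scaling: quantile normalization gave calls below 0 for Ambp (-0.13), Hp (-0.21), Itih3 (-0.25) and Il6st (-0.45), while median centring gave calls above 0 for Ambp (0.51), Hp (0.47), Itih3 (0.45), Itih4 (0.51) and Lbp (0.95). Socs3, at 0.46 ± 0.217 (adjusted p = 0.0571), was called without chimeric control 1 or 5 or SD control 1, and also with the normexp background (0.50), quantile normalization (0.81) and median centring (0.86).

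**Figure D5:**
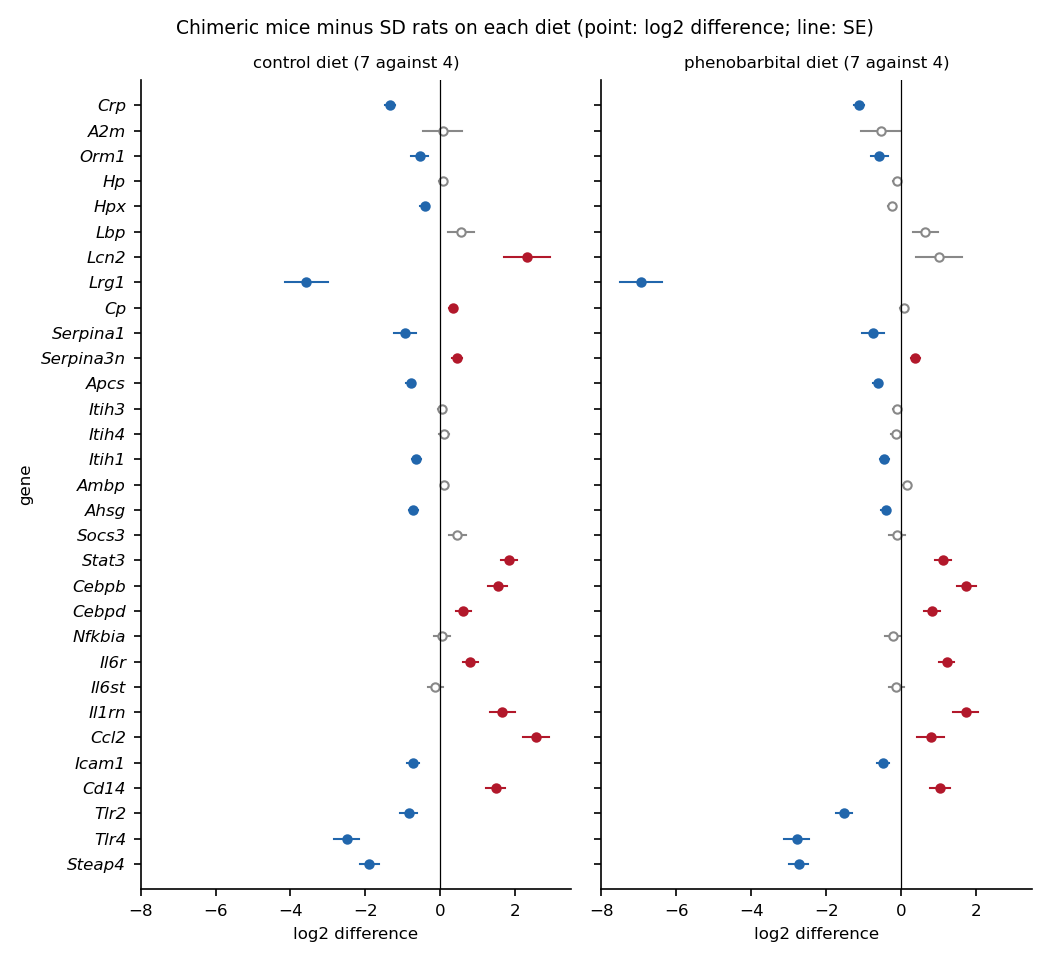
Level in chimeric mice minus level in SD rats for each gene, in log2 units, on control diet and on PB; points are differences, lines 1 SE each way, and filled red and blue points are called higher and lower by limma at the scaling to the 75th percentile. On control diet 10 genes are higher and 12 lower and on PB 8 and 11, splits that became 16 and 6 and 18 and 5 with median centring; Lrg1 and Steap4 lie far left on both diets, and Cebpb, Il1rn and Stat3 lie right.

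On PB, chimeric mice were higher than SD rats for 8 genes and lower for 11, against 38.8% higher and 33.9% lower of all genes tested. With median centring all genes shifted up by 0.68 and the split was 18 higher and 5 lower, and with quantile normalization it was 6 and 17. Lrg1 differed by -6.95 ± 0.57 (limma adjusted p = 3.44e-11), again with 2 of 7 chimeric arrays not well above background. Steap4 differed by -2.73 ± 0.253, Tlr2 by -1.53 ± 0.221 and Crp by -1.13 ± 0.141. Tlr4 was well above background on 0 of 7 chimeric PB arrays and was at least 3.21-fold lower than in SD rats, a bound that was not itself tested. Its limma difference of -2.78 (adjusted p = 3.68e-08) rests on dim signals, and the normexp background gave a difference of 0.06.

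Of the genes that were higher on PB, Cebpb differed by 1.75 ± 0.252, Il1rn by 1.73 ± 0.33, Il6r by 1.22 ± 0.195, Stat3 by 1.13 ± 0.212, Cd14 by 1.04 ± 0.261 and Cebpd by 0.83 ± 0.205, none of them overlapping between the models. Ccl2, at 0.79 ± 0.354 (limma adjusted p = 0.0475), was lost without any one of 7 of the 11 arrays (chimeric PB 1, 2, 4 or 7 or SD PB 1, 2 or 3; adjusted p up to 0.21). Serpina3n differed by 0.38 ± 0.122 and was not called with quantile normalization. Cp was not called by its brighter probe (0.08 ± 0.105). Its second probe was called lower, at -1.70 ± 0.1415 (limma adjusted p = 4.78e-11), so that the result for Cp depends on the probe. Serpina1 (-0.75 ± 0.287), Apcs (-0.62 ± 0.115), Orm1 (-0.58 ± 0.229), Icam1 (-0.48 ± 0.154), Itih1 (-0.45 ± 0.116) and Ahsg (-0.41 ± 0.128) were lower at this scaling, but with median centring none of the 6 was called and all but Serpina1 turned above 0. Without 1 array, Orm1 was lost for chimeric PB 1 or 6 or SD PB 2, Icam1 for SD PB 4 and Serpina1 for chimeric PB 4, at adjusted p values of up to 0.0918, 0.0519 and 0.0514, and Hpx (-0.24 ± 0.119) was called without chimeric PB 7. The direction of Hpx, Hp, Itih3, Itih4 and Il6st depends on the scaling. All 5 were called below 0 with quantile normalization (-0.72, -0.28, -0.63, -0.29 and -0.50). With median centring all were called above 0 (0.44, 0.57, 0.58, 0.54 and 0.55).

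Most markers of macrophages and lymphocytes were lower in chimeric mice than in SD rats. Those of cholangiocytes and of stellate cells and fibroblasts were split, while the called hepatocyte, endothelial and neutrophil markers were all lower. On control diet 10 of 12 macrophage and Kupffer cell markers and all 7 tested T, NK and B cell markers were lower by limma, with C1qc at least 165-fold and Marco at least 57.6-fold lower. The summed macrophage level of 56.6 to 67.7 compared with 105.1 to 122.7 in SD rats, and that of T, NK and B cell markers was 0.20 to 0.30 against 0.82 to 1.02. The 7 hepatocyte markers summed to 1225 to 1524 against 1339 to 1409, with 4 of 7 lower. Of 4 tested cholangiocyte markers 2 were higher and 2 lower (summed level 1.69 to 3.15 against 0.75 to 1.48), of 7 stellate cell and fibroblast markers 3 were higher and 4 lower (3.69 to 5.30 against 10.98 to 15.12), and of 4 endothelial markers 3 were lower. Of 3 tested neutrophil markers 2 were lower, and the 7 matched ones summed to 0.21 to 0.57 against 0.55 to 1.13. The part of these markers in the levels of Tlr4, Tlr2, Ccl2 or Icam1 was not tested. How well the rat probes read the host's mouse RNA was not tested either.

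Other genes of these pathways, from lists chosen with results of these data known, are given by counts. In SD rats on PB, 0 of 20 tested genes of interleukin-6 and JAK/STAT signalling, 1 of 29 genes of interleukin-1, tumour necrosis factor, toll-like receptor and NF-kB signalling (Irak1, higher) and 1 of 17 chemokine and adhesion genes changed by limma. The last was Cxcl9, a chemokine for T cells, which rose by 1.61 ± 0.253 (adjusted p = 0.00243). Of 33 other acute phase plasma proteins, Mbl2 (mannose-binding lectin) rose and Pzp fell, and 0 of 17 transcription factors changed. These counts are to be read against all genes tested in SD rats, of which 2.5% rose and 1.8% fell. In CAR KO rats 0 genes of these 5 lists were called by limma, with 1 to 5 genes of each list at an unadjusted p under 0.05.

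Cxcl9 rose by 3.07 ± 0.138 in chimeric mice (limma adjusted p = 2.13e-09; 3.08 within slide 1, adjusted p = 6.41e-05), and its response was lower in CAR KO than in SD rats by -1.75 ± 0.359 (adjusted p = 0.0481). In chimeric mice on PB, 2 of 9 tested chemokine and adhesion genes rose, Cxcl9 among them, and 2 fell. Of 18 interleukin-6 and JAK/STAT genes 2 rose and 2 fell, and of 24 interleukin-1 and NF-kB genes 5 rose and 3 fell. These shares are to be read against the 19.3% and 23.4% of all genes. Sigirr (0.83 ± 0.112), Tlr3 (0.66 ± 0.162), Nfkbib (0.61 ± 0.132), Ptpn11 (0.65 ± 0.154) and Ptpn6 (0.52 ± 0.135) were among those that rose. Il1a (-2.08 ± 0.338), Tnf (-0.87 ± 0.177), Il18 (-0.55 ± 0.195), Lif (-0.99 ± 0.194) and Il11 (-0.38 ± 0.129) fell. Of 34 other acute phase plasma proteins A1bg (3.25 ± 0.29) and Mbl2 (0.58 ± 0.127) rose and 10 fell, among the latter the kininogens Kng1 (-0.90 ± 0.227) and Kng2 (-0.65 ± 0.159), Fgl1 (-0.50 ± 0.133) and the fibrinogen chain Fgg (-0.49 ± 0.186). Of 18 transcription factors 4 rose, among them the stress-induced Atf3 (2.87 ± 0.773), and 5 fell, among them the glucocorticoid receptor Nr3c1 (-1.12 ± 0.179). Within slide 1, 0 genes of the interleukin-6, interleukin-1 and transcription factor lists were called, and 2 of the plasma proteins were (A1bg at 3.15 and Kng2 at -1.22); Il1a was -0.49 and Lif -0.14 there. The signal of Il6 itself never rose well above background in any of the 6 groups, nor did that of Il1b on a chimeric array.

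Between CAR KO and SD rats on control diet, 1 of 34 other acute phase plasma proteins was higher (A1bg, 2.66 ± 0.92) and 8 lower. The latter included Apoa1 (-0.85 ± 0.217), the complement gene C3 (-0.31 ± 0.0528), the fibrinogen chain Fga (-0.30 ± 0.103), Mbl1 (-0.43 ± 0.106) and Serpinf2 (-0.30 ± 0.062), an inhibitor of plasmin. On PB 2 were higher and 7 lower of 34, A1bg by 6.12 ± 0.916 and Serpina6, the plasma carrier of glucocorticoids, by 0.88 ± 0.155. A1bg was too dim in both SD groups to be tested for PB there, so its differences on both diets rest on dim SD signals. Among 18 transcription factors 3 were higher and 0 lower on control diet, among them Nr3c1 (0.74 ± 0.144) and Foxa1 (0.43 ± 0.116). Of 20 interleukin-6 and JAK/STAT genes 1 was higher and 5 lower on control diet, and of 29 interleukin-1 and NF-kB genes 2 and 8. These counts are to be read against all genes tested, of which 14.4% were higher and 19.7% lower on control diet. On PB the shares of all genes were 16.9% and 25.1%.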

How the data were processed

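Liver RNA of 30 animals was read on 1-colour Agilent rat arrays (design 028279). Per the file headers, the authors' intensity values came from Agilent Feature Extraction 10.7.3.1 (protocol GE1_107_Sep09). From 62976 spots per array, 4259 control spots were left out, and outlier spots were set missing. Spots of a probe were averaged on the log2 scale and each array's 75th percentile was subtracted. The authors' deposited log2 table had a correlation of 1 with the log2 signals of every array, but its offset per array was not established, so it served as an alternative. By RefSeq accession, 18004 of 30367 probes matched 15170 symbols, and the brightest probe over the 16 rat arrays stood for a gene. A probe was well above background on an array where at least 0.5 of its spots were, and a gene was tested where that held on at least 75% of a group's arrays. No spot was saturated (0).

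R 4.3.3 and limma 3.58.1 (lmFit, eBayes, Benjamini-Hochberg) were used on the 16 rat arrays, the 14 chimeric arrays, or all 30 for chimeric against SD. Feature Extraction's mean signal column was absent, so the normexp alternative (offset 50) used the median signal. The scripts were tested on simulated data. Every member with a probe is named; of the other lists, called genes are named from the largest differences, at most 6 per list and comparison (4 for markers), and 1 such gene is not reported here. Members, lists and alternatives were chosen with earlier results of these data known. Replicate numbers were not taken to pair the samples, since not every pair was above 0.1: correlations of same-numbered deviations were -0.12 to 0.08 in SD rats, -0.26 to 0.13 in CAR KO rats and -0.23 to 0.80 in chimeric mice, where 4 of 7 pairs were above 0.1 and 3 arrays correlated best with their own number. For the list and marker genes, slide as a block was added after seeing the data. Precision is limited by the number of arrays.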

Additional observations from a re-analysis of the deposited data

Results flagged for a closer look

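Of 186 combinations of a gene and a group that were searched for a single array far from the rest by Dixon's criterion, 14 held one, where chance flags about 1 in 20 groups. In SD control rats, array 2 was low for Hpx (8.33, the other 3 between 8.64 and 8.67) and Itih4 (9.31), array 4 was high for Serpina1 (9.06), array 3 was high for Ahsg (8.59) and array 1 was high for Cebpd (1.02). In CAR KO rats, control 1 was low for Cp (7.65) and Il1rn (1.76), control 4 was high for Tlr2 (-0.30), PB 2 was high for Cebpd (0.82) and PB 4 was low for Cd14 (0.74). In chimeric mice, control 6 was high for Il1rn (5.55) and for Tlr4 (-4.01), where it was the one array well above background. Chimeric PB 1, the PB array that shared the controls' slide, was low for Itih1 (5.05) and Itih3 (7.52).

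With the brightest probe for each gene, the PB responses of chimeric mice and SD rats differed by limma for Lrg1 (chimeric minus SD, -3.37) and for Ccl2 (-1.77). Both were lower in chimeric mice. Neither was called with slide as a block, and the part of the slide in these differences was not tested further.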

How the results depend on the processing

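In SD rats 5 genes were called for PB, against 3 with quantile normalization, 2 with median centring, and 0 with only the arrays compared, with all 30 arrays in 1 fit and with the replicate block. In CAR KO rats the count of 0 became 2 with no filter on dim probes and 1 with array weights. The 12 genes lower in CAR KO than in SD rats became 2 with all 30 arrays in 1 fit, on control diet and on PB alike. The 10 genes called in chimeric mice became 2 with slide as a block, and the 2 whose response differed from that of SD rats became 4 with array weights and 0 with slide as a block. Leaving out each array in turn gave 2 to 4 calls for PB in SD rats, 0 in CAR KO rats and 9 to 11 in chimeric mice. It gave 12 to 14 between CAR KO and SD rats on control diet and 8 to 13 on PB, 21 to 23 and 17 to 19 between chimeric mice and SD rats, 0 for the response of CAR KO minus SD rats and 2 to 3 for that of chimeric mice. Between CAR KO and SD rats on control diet, these calls included Lcn2 or Ccl2 as higher for some arrays left out. Of the values for single genes under an alternative, 6014 kept direction and call, 142 lost a call, 84 gained one, 23 turned sign with a call before or after, and 252 turned sign without one.

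The values that turned sign with a call before or after were these. With quantile normalization, Hp was 0.00 and Itih4 0.0042 in CAR KO against SD rats (control diet and PB), and in chimeric mice against SD rats on control diet Ambp was -0.13, Cp -0.14, Hp -0.21 and Itih3 -0.25, and Cp on PB -0.48. With the normexp background Tlr4 was 0.0498 and 0.0604 in chimeric mice against SD rats on control diet and PB, and Socs3 on PB was 0.28. With the mean of both probes, Cp was -0.18 and -0.81. With median centring, on PB, Ahsg was 0.27, Apcs 0.0536, Hp 0.57, Hpx 0.44, Icam1 0.19, Il6st 0.55, Itih1 0.23, Itih3 0.58, Itih4 0.54, Orm1 0.10 and Socs3 0.56. Median centring shifts all genes there by 0.68, while other causes were not tested. Dim signals limit Lrg1 in chimeric PB mice, Tlr4 in chimeric mice, Lcn2 in SD controls and, of the other lists, A1bg in SD rats.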
